A study of Mus musculus with 3 samples.

Results

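The genes described here are 8 members of the interleukin-1 (IL-1) system, namely the ligands Il1a, Il1b and Il18, the antagonists Il1rn and Il18bp, and the receptor genes Il1r1, Il1rap and Il1r2. They were chosen by gene symbol, and all 8 were found among the 55536 annotated genes of the tables. The data are total RNA-seq of RNA bound to chromatin, depleted of ribosomal RNA, from bone-marrow-derived macrophages of C57BL/6J mice. All 3 libraries belong to 1 group: the cells received 100 ng/ml Lipid A, the lipid part of lipopolysaccharide that activates the receptor TLR4, for 12 hours, were left without it for 12 hours after a wash, and were given 100 ng/ml Lipid A again for 60 minutes. No untreated library is part of this group, so the values are levels and comparisons between genes, not responses to Lipid A. The labels number the libraries as biological replicates and give all of them 1 donor entry, without stating separate animals or cultures. Every p-value below therefore measures only the spread between these samples.

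IL-1α and IL-1β, the proteins of Il1a and Il1b, bind the receptor IL-1R1, which then recruits the accessory protein encoded by Il1rap and signals through MyD88 and the IRAK kinases. The receptor antagonist encoded by Il1rn occupies IL-1R1 without recruiting the accessory protein, the Il1r2 product is a decoy receptor without a signalling domain, and IL-18 is held inactive by the secreted binding protein of Il18bp. IL-1β and IL-18 are made as precursors and cut by caspase-1 in inflammasomes, and macrophages given a TLR4 agonist are a textbook source of IL-1β.

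Expected counts on genes summed to 12602702, 17222239 and 17042691 in replicates 1, 2 and 3, an expected count being the estimated number of fragments that belong to a gene. A gene with at most 3 counts in every library was taken as undetected, which corresponds to 0.174 to 0.238 CPM (counts scaled to library size) and covers counting error only. Levels are given in TPM, a relative abundance per transcript length that sums to the same total in every library. Reads were assigned to annotated exons only, so that intronic RNA counts only where an annotated transcript holds the intron. In the gene table all 12 macrophage markers were detected, led by Cybb (515 ± 122 TPM, SD, n = 3) and Adgre1 (441 ± 140 TPM, SD, n = 3), with summed counts of 66390, 69665 and 66250. Of 12 neutrophil markers 1 was detected, Csf3r, which macrophages can also express; Ngp had 1, 3 and 0 counts, and 7, among them S100a8, S100a9 and Ly6g, were at 0 throughout. Of 10 T and NK cell markers 1 was detected, Lck (1, 4 and 0 counts), with Cd3d next at 1, 0 and 0. Of 8 B cell markers 3 were detected, Blnk (1837, 2098 and 1909 counts), Cd22 (86, 82 and 13) and Ebf1 (0, 65 and 0). Of 10 mast cell and basophil markers 3 were detected, Hdc (53, 30 and 30), Kit (19, 13 and 27) and Gata2 (1, 11 and 0). Of 6 dendritic cell markers 5 were detected, led by Zbtb46 (11, 35 and 34) and Clec9a (15, 16 and 15), with Flt3 at 3, 1 and 4. The other deposited tables gave counts to some markers undetected here, the most to Cd3d (259, 538 and 605), Cxcr2 of neutrophils (217, 293 and 318) and Cd8a (56, 98 and 75). In the gene table replicate 2 stood apart: all 12 fibroblast and stromal markers were highest there, with summed counts of 7, 47277 and 113 in replicates 1, 2 and 3, led by Col1a1 (0, 16804 and 36 counts) and Col1a2 (0, 11612 and 25). Col6a1, Pdgfra, Dcn, Lum, Thy1 and Cxcl12 were above 3 counts in that library alone, with 153 to 1157 counts there. In bulk RNA, fewer cells of a type and less RNA per cell cannot be told apart.

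Chromatin RNA of these macrophages held the ligand and antagonist genes at high levels and the receptor genes at low levels. Il1b, Il1a, Il18bp, Il18 and Il1rn each stood at 10 TPM or more in every library, which makes 5 of 8 genes, while 16.7% of 22028 protein-coding genes did so. The same 5 genes stood at 1 TPM or more in every library, a level passed by 38.9% of protein-coding genes. The median over the 8 genes was 34.9 TPM, beside 0.56 TPM over all protein-coding genes. Il1a and Il1b together made up 81.2% of the summed TPM of the 8 genes. Of the 8, 7 were detected in the gene table, and Il1r2 was not. Among all 22028 protein-coding genes, 8200 were undetected by the same rule.

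**Figure D1:**
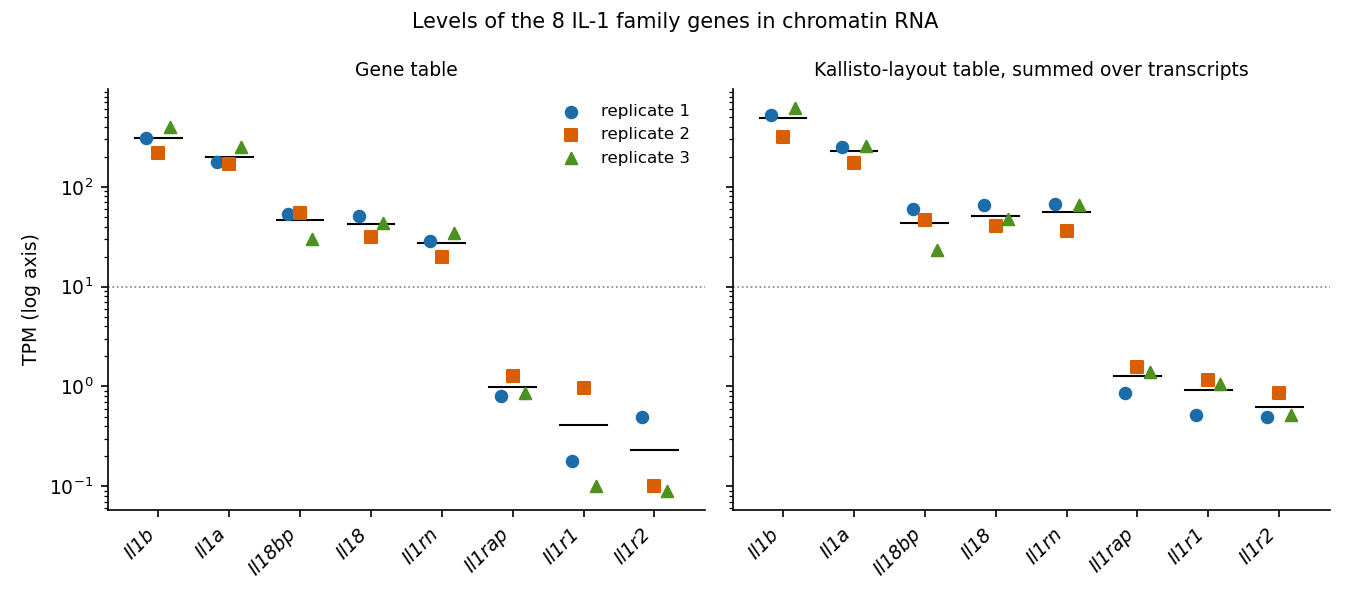
Level of each of the 8 genes in TPM on a log axis, in the gene table (left) and in the second set of deposited tables, summed over transcripts (right); points are the 3 libraries, black lines their means, the dotted line 10 TPM. The 5 ligand and antagonist genes lie above the dotted line in every library of both tables, and the 3 receptor genes lie below 2 TPM.

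Il1b, which encodes IL-1β, was the highest of the 8 genes in TPM over all transcript models. It stood at 309, 220 and 396 TPM in replicates 1, 2 and 3 (308 ± 87.7, SD, n = 3), from 3562, 2066 and 4372 counts, and ranked 140th of 22028 protein-coding genes. In TPM replicate 2 was lowest and replicate 3 highest. The deposited credibility intervals of the libraries, 280 to 304, 192 to 213 and 351 to 377 TPM around their posterior means, did not overlap. Their level of confidence is not given in the sources used here. The gene lies on the minus strand of chromosome 2 at 129364570 to 129371139 (mm10), and the antisense gene Il1bos overlaps 1243 bases of it, 25 of them exonic in both. Il1bos stood at 1.2, 0.60 and 2.81 TPM, far below Il1b in every library.

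Il1a encodes IL-1α, which is active without cutting by caspase-1. In the gene table it stood at 178, 168 and 251 TPM (199 ± 45.8, SD, n = 3), from 4708, 3803 and 6181 counts, and ranked 256th among protein-coding genes. Replicate 3 was the highest there, and replicates 1 and 2 lay close together. The other tables gave 251, 172 and 257 TPM and the gene counts corresponded to 374, 221 and 363 CPM, with replicate 2 apart by both. Il1a lies 54597 bases from Il1b on the same strand of chromosome 2, at 129299610 to 129309972, and has a single annotated transcript. The noncoding gene Gm14023 runs over it on the opposite strand for 8217 bases, of which 222 are exonic in both, and stood at 98.0, 166 and 200.7 TPM. The strand setting of the counting is not given in the sources used here, so that reads of Il1a and of Gm14023 within those exonic bases cannot be told apart. Of the other neighbours, Ckap2l, 2397 bases beyond the Il1a end, stood at 1.34, 1.81 and 5.66 TPM.

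The promoters of the 3 genes of the IL-1 receptor axis that were high on chromatin are shown to compare what precedes their starts, with 2 for Il1rn because it has 2 annotated start regions. Each sequence covers the 150 bases before the start (RefSeq, GRCm38.p6), and capitals mark matches to the motifs named below.
Il1a promoter (chr2:129309973-129310122, minus strand): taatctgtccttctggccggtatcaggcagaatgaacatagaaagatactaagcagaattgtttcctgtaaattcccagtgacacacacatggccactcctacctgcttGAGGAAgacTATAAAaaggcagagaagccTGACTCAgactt
Il1b promoter (chr2:129371140-129371289, minus strand): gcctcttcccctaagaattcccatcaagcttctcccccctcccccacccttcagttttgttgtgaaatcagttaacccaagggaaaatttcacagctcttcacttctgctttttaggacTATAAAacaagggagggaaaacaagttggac
Il1rn upstream promoter (chr2:24336710-24336859, plus strand): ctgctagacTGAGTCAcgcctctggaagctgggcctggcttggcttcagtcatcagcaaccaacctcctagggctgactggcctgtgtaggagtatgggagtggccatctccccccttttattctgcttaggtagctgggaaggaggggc
Il1rn downstream promoter (chr2:24345141-24345290, plus strand): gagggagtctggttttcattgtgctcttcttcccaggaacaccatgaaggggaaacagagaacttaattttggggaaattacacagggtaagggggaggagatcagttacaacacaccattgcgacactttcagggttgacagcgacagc
Both ligand promoters held the TATA box letters TATAAA on the coding strand at nearly the same distance, at positions -32 to -27 in Il1a and -31 to -26 in Il1b, where -1 is the base before the start. Searched on both strands in windows of 300 bases (250 before and 50 after the start), these letters occurred in 13.6% of 32851 annotated promoters. A further window in the downstream start region of Il1rn (chr2:24345121-24345420), not shown, held these letters on the other strand, after its start, and 4 CpG. An AP-1 site (TGANTCA), which overlapped no other match, was found at -12 to -6 in Il1a and at -141 to -135 in the upstream Il1rn promoter, and in 7.81% of all windows. Il1a also held GAGGAA, the core of a PU.1 site, at -41 to -36, which 28.3% of windows hold. Neither the NF-kB consensus (8.46% of all windows) nor the C/EBP letters TTNNGCAA (10.8%) occurred in the windows of Il1a, Il1b and Il1rn. The CpG count was 5 in Il1a, 3 in Il1b, 1 in the upstream and 5 in the downstream Il1rn window, beside a median of 7 over all windows, 5 and 14 in the windows of the receptor gene Il1r1, 16 in that of Il1r2 and 33 in that of Il1rap. These matches describe the letters of the windows and were not compared with any binding data.

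Il1rn, which encodes the receptor antagonist, was the lowest of the 5 high genes. It stood at 28.6, 19.8 and 34.6 TPM (27.7 ± 7.43, SD, n = 3), from 501, 364 and 587 counts, with replicate 2 lowest and replicate 3 highest in TPM. The gene spans chromosome 2 from 24336853 to 24351494 on the plus strand, and its nearest neighbour to the left, the family member Il1f10, was at 0 counts in every library. Il1rn is known for a secreted antagonist that starts at the downstream first exon and an intracellular form that starts upstream. Transcript models that start downstream, at 24345288 to 24345348, held 81.8, 71.2 and 83.8% of its TPM, and those that start upstream, at 24336853 or 24336856, the remaining 18.2, 28.8 and 16.2% (21.1 ± 6.75%, SD, n = 3). In TPM the upstream models stood at 5.20, 5.71 and 5.62, close together, whereas the downstream models stood at 23.4, 14.1 and 29.0 TPM. The low level of Il1rn in replicate 2 thus lay in the downstream models. Among these, the processed transcript Il1rn-206 stood at 14.6, 6.25 and 16.1 TPM, and the protein-coding models at 8.75, 7.87 and 12.9 TPM. Counting protein-coding models only, the downstream starts held 30.6, 39.7 and 37.3% of the TPM of Il1rn (35.9 ± 4.69%, SD, n = 3) and the upstream starts 16.5, 27.8 and 13.9% (19.4 ± 7.40%, SD, n = 3). The other deposited transcript tables gave the upstream models 24.4 ± 7.16% (SD, n = 3) with all models counted. With protein-coding models only, they gave the downstream starts 31.9, 23.9 and 28.8% and the upstream starts 18.7, 32.1 and 20.2%, so that replicate 2 had the reverse order. Among downstream models, the short processed transcript Il1rn-206 took 51.2, 31.5 and 46.5% of the gene's TPM in the first tables and the coding Il1rn-201 28.3, 35.5 and 37.3%. In the other tables Il1rn-206 took 48.7, 43.5 and 50.1% and Il1rn-201 13.7, 20.8 and 23.5%.

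The contrast between agonist and antagonist was large in every library. Per TPM, Il1b exceeded Il1rn 10.8-fold, 11.1-fold and 11.4-fold in replicates 1, 2 and 3, a difference of 3.43 ± 0.05 (SD, n = 3) in log2(TPM + 1), the scale of all differences between genes below. Il1a exceeded Il1rn 6.22-fold, 8.46-fold and 7.27-fold (2.81 ± 0.21, SD, n = 3), and in the other tables by 3.72-fold, 4.76-fold and 3.92-fold (2.02 ± 0.18, SD, n = 3). Il1b exceeded Il1a 1.74-fold, 1.31-fold and 1.57-fold (0.61 ± 0.21, SD, n = 3). No library reversed any of these 3 differences and each was over 2 SD from 0, the rule used here to call genes separated. The exact two-sided sign-flip test over 3 libraries gave p = 0.25 for each (0.375 after Benjamini-Hochberg adjustment over 6 contrasts), the smallest p that 3 libraries allow. The measure decided which ligand was higher. In CPM not divided by length, Il1a exceeded Il1b, with a difference of -0.59 ± 0.25 for Il1b minus Il1a. The protein-coding model Il1b-201 alone stood at 133, 98.7 and 205 TPM, below Il1a (178, 168 and 251 TPM) in every library. The other tables had the same order, with 157, 92.8 and 198 TPM for Il1b-201 beside 251, 172 and 257 TPM for Il1a.

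The narrow spread of the ratio of Il1b to Il1rn belonged to the TPM over all transcript models. With protein-coding models only, the ratio was 9.85, 7.38 and 11.6 in replicates 1, 2 and 3, and in expected counts it was 7.11, 5.68 and 7.45, lowest in replicate 2 by both. The other deposited tables gave 7.70, 8.78 and 9.37 in TPM. Il1b was the higher of the pair by at least 5-fold in each of these measures.

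**Figure D2:**
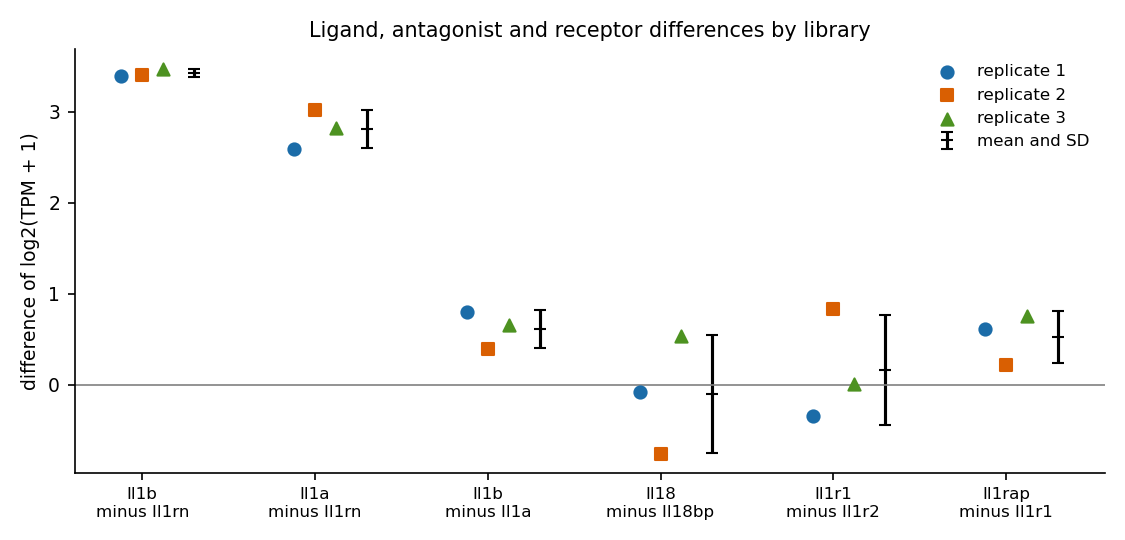
Difference of log2(TPM + 1) for the 6 contrasts between ligand, antagonist and receptor genes; points are the 3 libraries, and the black mark with bars is the mean with its SD. Il1b minus Il1rn lies between 3.39 and 3.48 in all libraries, while Il18 minus Il18bp has both signs.

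In TPM over all transcript models of the gene table, the library-to-library pattern of Il1rn was close to that of Il1b. Over the 4559 protein-coding genes with a mean of 10 TPM or more, log2(TPM + 1) was centred on each gene's mean and genes were ranked by the Euclidean distance over the 3 libraries. Il1rn was the 6th nearest of 4558 genes to Il1b (distance 0.065, median over all genes 0.943), and Il1b the 4th nearest to Il1rn. The nearest to Il1b were Dcbld2, Bcl2a1d and Ebi3, and the nearest to Il1rn were Sowahc, Bcl2a1d and Dcbld2. Dusp16, Slc38a1 and Ctsc were nearest to Il1a, while Il1b ranked 278th for it. The small distance between Il1b and Il1rn restates the narrow spread of their TPM ratio and is no separate result. The SD of the log2 ratio was 0.040 in that measure. It was 0.33 with protein-coding models only, 0.21 in expected counts and 0.14 in the other tables, for which no distances were computed. With 3 libraries that share their depth and composition effects across genes, these distances are descriptions only.

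Il18 and its antagonist Il18bp stood at like levels. Il18 had 51.2, 31.7 and 43.7 TPM (42.2 ± 9.82, SD, n = 3) from 442, 194 and 292 counts, lowest in replicate 2. Il18bp had 54.0, 54.3 and 29.8 TPM (46.0 ± 14.0, SD, n = 3) from 1384, 1222 and 707 counts. It was lowest in replicate 3, where Il1a, Il1b and Il1rn were highest in TPM of the gene table. In CPM Il18bp was again lowest in replicate 3, but Il1a, Il1b and Il1rn were highest in replicate 1. The ratio of Il18 to Il18bp was 0.948, 0.584 and 1.47 in replicates 1, 2 and 3. The difference of -0.10 ± 0.65 (SD, n = 3) was smaller than its spread and had both signs (exact two-sided sign-flip p = 0.75, adjusted 0.75). Without replicate 2 it turned to 0.23, and in CPM not divided by length Il18 lay below Il18bp in every library (-1.80 ± 0.68). Usp12, Rgs1 and Atf3 were nearest to Il18 in library pattern. Il18bp ranked 3586th of 4558 genes for Il1b and 3469th for Il1rn.

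Il18 lies on the plus strand of chromosome 9 at 50554827 to 50581840, with the genes Bco2 and Tex12 overlapping it on the other strand but sharing no exonic base. Its models Il18-201 and Il18-202 have equal lengths (702 bases) and differ in a single small exon of 12 bases. The models Il18-203 and Il18-204 carry the same small exon as Il18-202. In the gene table and its transcript tables the models with that exon held 100% of the TPM of Il18 in each library and Il18-201 was at 0. In the other deposited tables Il18-201 held 53.2, 40.7 and 48.8%, and Il18-202 was at 0 in every library. Il18-203 and Il18-204, which carry the small exon, held the remaining 46.8, 59.3 and 51.2% there. The 2 sets of tables therefore gave opposite choices between Il18-201 and Il18-202 from the same libraries. For the small exon itself the choice was not opposite, since models with it held a share in both. The summed level of Il18 differed little (42.2 and 51.0 TPM on average). Il18bp lies on the minus strand of chromosome 7 at 102014885 to 102018690. The coding models Il18bp-203 and Il18bp-202 held 66.4 ± 2.76% and 33.6 ± 2.76% (SD, n = 3) of its TPM, and Il18bp-201 and Il18bp-204 were at 0. Its end overlaps the end of Numa1 by 80 exonic bases on the other strand. Rnf121, on the same strand as Il18bp, ends 446 bases before the start of Il18bp. Numa1 stood at 44.1, 52.7 and 36.5 TPM and Rnf121 at 13.2, 22.6 and 14.5 TPM.

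The receptor genes were low. Il1rap, the accessory chain, stood at 0.80, 1.27 and 0.86 TPM (0.977 ± 0.256, SD, n = 3) from 37, 53 and 33 counts. Il1r1, the signalling receptor, stood at 0.18, 0.96 and 0.10 TPM (0.413 ± 0.475, SD, n = 3) from 7, 58 and 8 counts. Its level rested on replicate 2, and the mean without that library was 0.14 TPM. Replicate 2 is the library with the stromal markers given above, and their part in the Il1r1 value was not tested. The deposited credibility intervals of Il1r1, 0.0741 to 1.00, 0.704 to 2.08 and 0.0678 to 0.987 TPM, overlapped between the libraries. Il1r2, the decoy receptor, had 3, 1 and 1 counts (0.50, 0.10 and 0.09 TPM) and was not detected in the gene table at this depth.

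Neither neighbouring pair of the receptor genes was separated in the gene table. Il1rap minus Il1r1 was 0.53 ± 0.28 (SD, n = 3), above 0 in 3 of 3 libraries but within 2 SD of 0 (exact two-sided sign-flip p = 0.25, adjusted 0.375). Without replicate 2 the difference was 0.68 ± 0.11 and passed the rule. Il1r1 minus Il1r2 was 0.17 ± 0.60 (SD, n = 3), with both signs (exact p = 0.75, adjusted 0.75), and -0.17 without replicate 2. The other deposited tables gave more counts to Il1r1, at 23, 149 and 120, and put its level at 0.516, 1.16 and 1.07 TPM, so that replicate 2 stood apart less there. In those tables Il1r2 had 6, 9 and 7 counts, above the floor of 3 counts in every library, so that it was detected in 1 set of tables only. Of the Il1rap models, Il1rap-206, which ends at 26702356, before the last exons of the longer coding models, held 57.5 ± 13.0% of the TPM (SD, n = 3) and 33.9% in the other tables. These shares rest on 13.5 to 18.2 counts per library.

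In order of mean TPM the genes ran Il1b, Il1a, Il18bp, Il18, Il1rn, Il1rap, Il1r1 and Il1r2. By the rule of separation, 4 of the 7 neighbouring pairs were separated: Il1b from Il1a, Il1a from Il18bp (2.12 ± 0.80, SD, n = 3), Il18 from Il1rn (0.60 ± 0.25, SD, n = 3) and Il1rn from Il1rap (3.83 ± 0.56, SD, n = 3). Il18bp and Il18, Il1rap and Il1r1, and Il1r1 and Il1r2 were not. For each of the 4 separated pairs the exact sign-flip p was 0.25, adjusted over 7 pairs to 0.35. The pairs were taken from the order of means in these same libraries, so that the direction of each difference was largely set beforehand. Without replicate 2, Il18 minus Il1rn was 0.57 ± 0.35 (SD, n = 2) and no longer passed the rule. In the other tables Il18 and Il1rn were not separated and lay the other way round (-0.12 ± 0.30), since Il1rn stood at 56.4 TPM there.

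RNA on chromatin can still hold introns, and the annotation includes models that keep one. Il1b-203 keeps the second intron of Il1b, 532 bases at 129369752 to 129370283, and its ends are shown with 15 bases on either side of each splice site, the intron's first and last pair of bases in capitals.
Il1b intron 2, donor end: gccaccttttgacagGTcagtgggtactgg
Il1b intron 2, acceptor end: ctgttttcattacAGtgatgagaatgacct
Il1b-203 held 46.4, 50.5 and 44.6% of the TPM of Il1b in replicates 1, 2 and 3 (47.2 ± 3.02%, SD, n = 3), as much as the protein-coding Il1b-201 with 42.9, 44.8 and 51.9% (46.5 ± 4.76%, SD, n = 3). The other tables gave the pair 29.8 ± 2.72% and 30.6 ± 1.58% (SD, n = 3) and moved the rest to the short processed transcript Il1b-202, which has 39.6% there and 6.27% in the first tables. Of the 689 bases of Il1b-203, 157 are shared with exons of Il1b-201, and 25 bases of the kept intron are exonic in the antisense gene Il1bos.

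Retained-intron and protein-coding models were compared over all genes with both classes, as log2 of their TPM ratio with limma. Of 9120 such genes 4311 passed the minimum of 5 TPM, and 24.3% of those had the retained-intron class higher and 25.6% the protein-coding class (Benjamini-Hochberg adjusted p under 0.05). Among the 8 genes only Il1b and Il1rn have both classes, and both were tested: none had the retained-intron class higher and 1 had the protein-coding class higher. In Il1b the classes differed by 0.02 (SE 0.21, adjusted p = 0.929, limma). In Il1rn the retained-intron class, the single-exon model Il1rn-203 at the upstream start, was lower by 4.76 on the log2 scale (log2 ratio -4.76, SE 0.31, adjusted p = 0.00292, limma), in 3 of 3 libraries. With expected counts in place of TPM, which do not divide by the lengths of 689 and 1356 bases, the Il1b ratio became -1.26 (SE 0.21, adjusted p = 0.00635, limma), so that the call for Il1b depended on length. Over all genes the retained-intron class was then higher in 742 and the protein-coding class in 2408, in place of 1049 and 1104. Without replicate 3 these numbers were 351 and 473, and without replicate 1 they were 676 and 849, while the calls for Il1b and Il1rn stayed as they were.

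**Figure D3:**
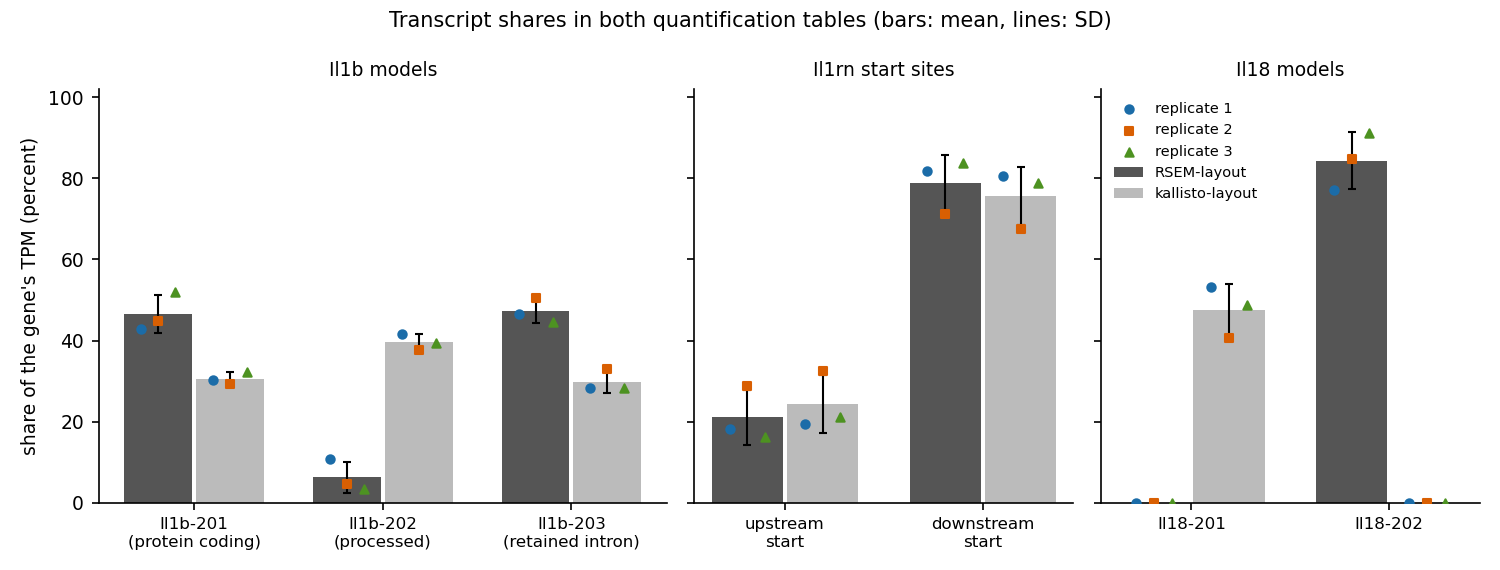
Share of each gene's TPM, in percent, taken by the models of Il1b, by the start regions of Il1rn and by 2 models of Il18, in the tables of the RSEM layout (dark bars) and of the kallisto layout (light bars); bars are means over 3 libraries, lines the SD and points the libraries. The coding and the retained-intron model of Il1b take equal shares in each table. The Il1rn start regions, with all models counted, keep their order in both. Il18-201 is at 0 in the RSEM layout, and Il18-202 is at 0 in the kallisto layout.

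Replicate 2 was the low library for Il1b, Il1a, Il18 and Il1rn. Against the mean of the other 2 libraries, log2 TPM in replicate 2 was -0.68 for Il1b, -0.36 for Il1a, -0.58 for Il18 and -0.67 for Il1rn, while the median protein-coding gene with a mean of 1 TPM or more moved by 0.63. Relative to that median the genes lay at -1.30, -0.98, -1.21 and -1.30, and Il18bp at -0.25. With TMM factors on CPM the same values were -1.46, -1.03, -1.47, -1.10 and -0.34, and all 5 were below 0 by median-of-ratios factors and in the other tables too. The 12 macrophage markers moved by a median of 0.29, and relative to them Il1b, Il1a, Il18 and Il1rn lay at -0.97, -0.64, -0.87 and -0.96 and Il18bp at 0.09. The same library held the stromal markers and was made from the smallest starting quantity, 250 ng beside 1000 and 500 ng, and the part of either in these levels was not tested.

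**Figure D4:**
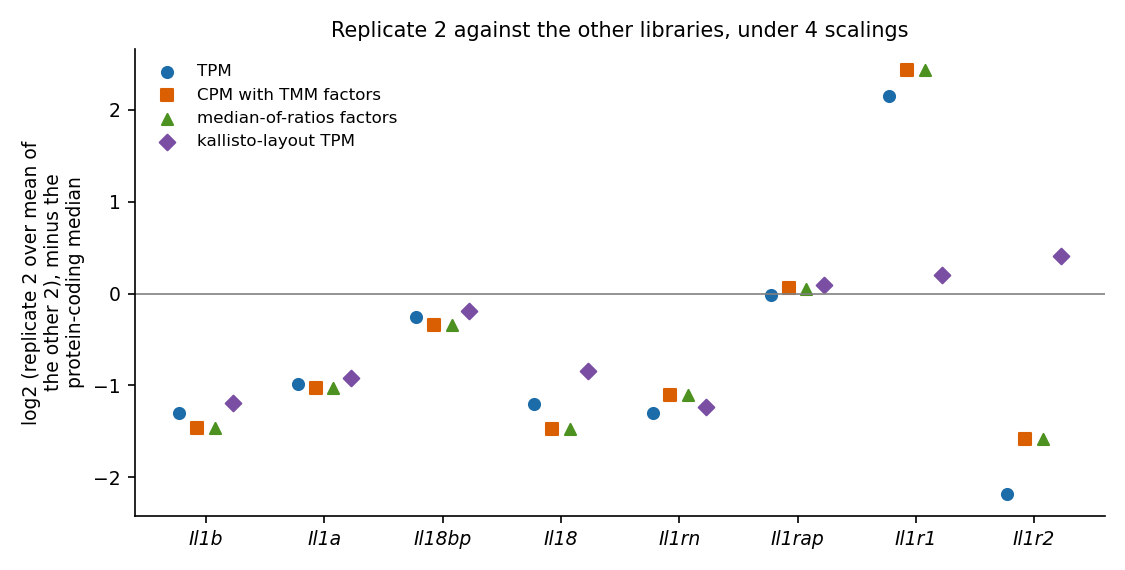
Log2 of replicate 2 over the mean of the other 2 libraries, minus the same for the median protein-coding gene, for each of the 8 genes under 4 scalings (symbols). Il1b, Il1a, Il18 and Il1rn lie between -1.47 and -0.85 over the scalings, Il18bp and Il1rap lie near 0, and the values of Il1r1 and Il1r2 rest on at most 58 counts in the gene table.

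The other genes of the pathway divided by role in the gene table. Signalling and processing genes were detected there. Undetected were 9 of 13 further ligands, antagonists and receptors, beside 8200 of 22028 protein-coding genes. Of the 13 further genes, 8 exceeded 3 counts in at least 1 library of the other tables, as did 16721 of 22028 protein-coding genes. Of 43 such genes 19 stood at 10 TPM or more in every library (16.7% of all protein-coding genes did) and 26 at 1 TPM or more (38.9%). The median of the 43 was 7.44 TPM. At or under 3 counts in every library were 13 of the 43, beside the 8200 of 22028 protein-coding genes. Of 6 further ligands and antagonists of the family, 5 were undetected: Il1f6, Il1f8, Il1f5 and Il1f10, which encode IL-36α, IL-36β, the IL-36 receptor antagonist and IL-38, were at 0, and Il1f9, which encodes IL-36γ, had 0, 1 and 0 counts. The other tables gave Il1f9 367, 206 and 332 counts (12.9, 5.88 and 9.83 TPM), so that it was detected in 1 set of tables only. Il33 had 0, 8 and 0 counts, all in the library with stromal markers.

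Of 7 further receptors, 4 were undetected, namely Il18r1, Sigirr, Il1rapl1 and Il1rapl2. Il1rl2, the IL-36 receptor, was the highest at 1.39, 2.68 and 1.23 TPM. Il1rl1, the receptor of IL-33, had 0, 64 and 0 counts in the gene table and 42, 176 and 116 in the other tables. Il18rap had 12, 8 and 5 counts. The IL-18 receptor genes differed between tables, with Il18r1 at 4.37, 8.16 and 10.02 TPM and Il18rap at 7.04, 7.59 and 8.53 TPM in the other tables, beside at most 0.04 TPM for Il18r1 and 0.47 TPM for Il18rap in the gene table. Il1rapl2, with 0 counts in the gene table, had 58, 281 and 370 counts in the other tables.

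Of 13 signalling genes 10 stood at 10 TPM or more in every library. The adaptor gene Pik3ap1 (291 ± 62.9 TPM, SD, n = 3), the kinase gene Irak2 (253 ± 12.4, SD, n = 3) and the ubiquitin ligase gene Peli1 (122 ± 37.6, SD, n = 3) led. Irak2 stood at 248, 267 and 244 TPM, and Myd88 at 27.0, 32.2 and 25.0 TPM. Of 13 genes of processing and release 9 stood at 10 TPM or more. They were led by Nlrp3, the inflammasome sensor, at 403, 419 and 585 TPM, by Casp4, which encodes caspase-11, at 342, 268 and 387 TPM, and by the pore-forming Gsdmd at 162, 177 and 130 TPM. Casp1, whose product cuts the IL-1β and IL-18 precursors, stood at 49.6, 61.4 and 43.5 TPM. All 4 genes of neutrophil and mast cell proteases that can also cut the ligands, Elane, Ctsg, Prtn3 and Cma1, were undetected. Of 14 pathway genes tested for isoform classes, 3 had the retained-intron class higher, namely Irak2 (log2 ratio 0.92, SE 0.22, adjusted p = 0.0272, limma), Casp4 (1.71, SE 0.25, adjusted p = 0.00865) and Gsdmd (1.00, SE 0.21, adjusted p = 0.0201), beside 24.3% of all genes tested. The protein-coding class was higher in 2, Irak4 (-1.33, SE 0.33, adjusted p = 0.031) and Tab2 (-1.39, SE 0.23, adjusted p = 0.0112), beside 25.6%.

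**Figure D5:**
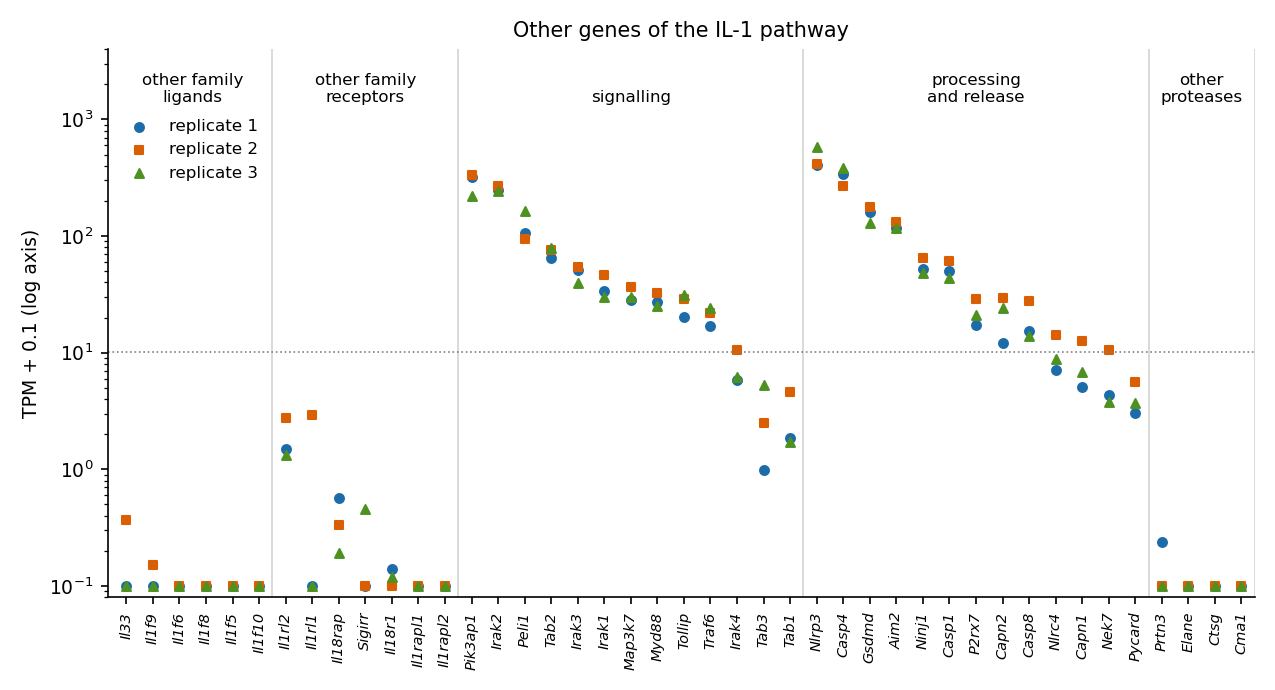
Level of the 43 other pathway genes in TPM plus 0.1 on a log axis, grouped by role and ordered by mean; points are the 3 libraries and the dotted line marks 10 TPM. Of the signalling genes 10 of 13 and of the processing genes 9 of 13 lie at or above the line in every library, and no further ligand, receptor or protease gene does.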

How the data were processed

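All 3 libraries were used as 1 group. Expected counts, posterior-mean values and TPM per gene and transcript were deposited by the authors in the layout of RSEM, per the file headers, and shares of transcripts were deposited in percent. They rest on mm10 and GENCODE M21, per the file notes. A second set per transcript, in the layout of kallisto, was also deposited by the authors and holds estimated counts and TPM. Neither the aligner nor the strand setting is given in the sources used here. Credibility bounds of TPM, treated as a score, were deposited by the authors beside each value. Rows that name no gene (1.94, 0.269 and 0.386% of counts) were left out.

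The 8 genes, the pathway and marker lists, the contrasts and the alternatives were chosen with earlier results of these data known. Differences of log2(TPM + 1) were tested over libraries by exact sign flips, two-sided. Isoform classes were tested with limma 3.58.1 in R 4.3.3 on log2 ratios with 0.1 TPM added, over all genes with a summed mean of at least 5 TPM, with Benjamini-Hochberg adjustment at 0.05. The script was tested on simulated data. TMM factors came from edgeR 4.0.16, used for scaling only. Pathway genes were named where among the 3 highest of their group, at or under 3 counts or past the isoform test, marker genes where among the 2 highest of their list or over 3 counts in a single library, neighbouring genes where they overlap or adjoin, and like genes as the 3 nearest (those of Il18bp are not reported here). Neighbouring genes that bear on no value are not listed. Casp1, Myd88, S100a8, S100a9 and Ly6g are named outside the rule, after their values were seen. Promoter windows came from RefSeq, where all 8 symbols matched with 11 windows. The libraries were not copies of each other (chi-square per gene of 61.5 to 102 between pairs). Alternatives were the other tables, posterior means, other scalings, pseudocounts and filters, and leaving out each library. Protein-coding genes held 26.8, 35.0 and 30.0% of the TPM, so that TPM rescaled to them put every level higher (Il1b at a mean of 1033 and Il1a at 659.6), with 5 of the 8 genes still at 10 TPM or more.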

Additional observations from a re-analysis of the deposited data

How the results depend on the processing

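Of 253 values recomputed under an alternative, 193 kept their direction and their side of the rule or stayed within the spread. Values that are counts were instead taken as kept within a fixed fold of the main count. By that limit 742 genes in place of 1049 with the retained-intron class higher (expected counts) were taken as kept. In the kallisto-layout tables Il18 minus Il18bp turned to 0.30 (the reverse pair to -0.30), Il18 minus Il1rn to -0.12, the Il1b isoform ratio to -0.038 and the replicate 2 deviations of Il1rap and Il1r2 to 0.10 and 0.41. There Il1rap minus Il1r1 (0.25) became separated, the Il1b retained-intron share was 29.8%, and 1810 genes in place of 1049 had the retained-intron class higher. Posterior means turned Il1r1 minus Il1r2 to -0.21. CPM not divided by length gave -0.59 for Il1b minus Il1a and a separated -1.80 for Il18 minus Il18bp. Expected counts gave -1.26 for the Il1b isoform ratio and 2408 genes in place of 1104 with the protein-coding class higher. The cause of these shifts was not tested, apart from the division by length in the last 2 settings.

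Leaving out 1 library in turn moved Il18 minus Il18bp between -0.42 and 0.23, Il18bp minus Il18 between -0.23 and 0.42, Il1r1 minus Il1r2 between -0.17 and 0.42, Il1rap minus Il1r1 between 0.41 and 0.68 and the Il1b isoform ratio between -0.051 and 0.14. The sign changes came without replicate 2, and for the Il1b isoform ratio also without replicate 1. Genes with the retained-intron class higher then numbered 351 to 901, and those with the protein-coding class higher 473 to 849, fewest without replicate 3. Without replicate 2, Il18 minus Il1rn (0.57) was no longer separated. Replicate 2 deviations of Il1rap turned to 0.055 with TMM factors and 0.054 with median-of-ratios factors. Against the macrophage-marker median, an alternative chosen after seeing the data, those of Il18bp and Il1rap were 0.086 and 0.33. Also chosen after seeing the data were the ratio from protein-coding models and leaving out libraries for transcript shares and pathway counts. No pairing of samples between groups was possible because all samples belong to 1 group, while differences between genes were paired within each library. Depth limits the receptor genes, whose levels rest on at most 58 counts per library in the gene table.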
